A study of Mus musculus with 4 samples.

Results

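The ATF4 and unfolded protein response genes described here are 47 of the 24340 genes in the expression table, taken by symbol from a list of members of both pathways. They fall into 5 branches: 8 transcription factors and feedback regulators, 9 enzymes of amino acid synthesis and folate metabolism, 4 amino acid transporters, 12 tRNA synthetases with the tRNA exporter Xpot, and 13 chaperones and degradation factors of the endoplasmic reticulum. All 47 were in the table, and 45 of them reached a mean of 1 FPKM over the libraries, as did 10471 genes in all. FPKM is the number of sequenced fragments per kilobase of transcript and per 1000000 fragments. Atf3 and Cth stayed below that mean and are described apart.

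The RNA came from C57BL/6 mouse bone marrow cells without lineage markers and with the receptor Kit on their surface (Lin-cKit+). All 4 groups carried JAK2V617F, an activated form of the kinase JAK2, and each group was 1 library. The cells were JAK2V617F;Tet2+/+ as control or with ruxolitinib, and JAK2V617F;Tet2-/- as control or with ruxolitinib, and are called wild type and knockout below. Ruxolitinib inhibits the kinases JAK1 and JAK2, and Tet2 oxidises methylated cytosine in DNA. The series text speaks of conditional inactivation of Tet2 in blood cells. Neither the recombinase driver, the number and age of the animals, nor the dose and duration of the drug is given in the sources used here. With 1 library per group there was no spread between replicates, so every difference below is between libraries and has no replicate check.

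Cells slow general translation when kinases phosphorylate the initiation factor eIF2 alpha, in answer to unfolded protein, scarce amino acids, missing haem or viral RNA. The mRNA of Atf4 is then translated more, and the ATF4 protein switches on genes that make, import and charge amino acids. Unfolded protein in the endoplasmic reticulum also acts through the sensors IRE1, which splices the mRNA of Xbp1, and ATF6, and these raise chaperones and degradation factors. The level of an mRNA therefore does not report the amount of active ATF4 or spliced XBP1.

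The DNA element best known in chaperone promoters is the endoplasmic reticulum stress element, CCAAT, 9 bases of any kind and CCACG. Promoter windows of RefSeq (GRCm38.p6, 250 bases before to 50 bases after the start) were found for 40 of the 47 genes. The element, searched on both strands, was in the windows of 5 genes, or 12.5%, against 0.119% of 32851 windows of all genes and 0.151% of the 7963 measured genes with a window. The 12 measured genes that held it include these 5. The 47 were listed as members of these pathways, and the element is best known from chaperone promoters. The excess is therefore no independent result. All 5 belong to the endoplasmic reticulum branch: Hspa5, Hsp90b1, Pdia6, Creld2 and Dnajc3. They are printed because most of this group was among the chaperones lower with ruxolitinib, with the element in capitals and the strand of the gene read 5′ to 3′. The coordinates in this order are chr2:34771995-34772073 (plus strand), chr10:86705503-86705581 and chr10:86705608-86705686 (minus strand, 2 elements), chr12:17266461-17266539, chr15:88819490-88819568 and chr14:118937797-118937875 (all 3 plus strand).
Hspa5: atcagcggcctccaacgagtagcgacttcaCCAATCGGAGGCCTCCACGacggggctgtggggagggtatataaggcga
Hsp90b1, nearer element: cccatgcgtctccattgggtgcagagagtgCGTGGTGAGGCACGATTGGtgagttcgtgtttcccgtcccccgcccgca
Hsp90b1, farther element: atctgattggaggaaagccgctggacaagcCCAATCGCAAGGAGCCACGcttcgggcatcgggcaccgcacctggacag
Pdia6: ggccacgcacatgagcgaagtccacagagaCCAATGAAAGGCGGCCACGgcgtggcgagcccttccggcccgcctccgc
Creld2: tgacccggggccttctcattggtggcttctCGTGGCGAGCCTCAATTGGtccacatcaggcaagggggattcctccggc
Dnajc3: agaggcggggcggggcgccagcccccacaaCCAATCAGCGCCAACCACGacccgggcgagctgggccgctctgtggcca
The Hspa5 element ends 47 bases before the start, and those of Dnajc3 and Pdia6 end 87 and 80 bases before it. In Creld2 and at the nearer site of Hsp90b1 the element lies on the other strand, so its letters read in reverse complement.

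ATF4 binds, with a C/EBP partner, an element written here as TGATGNAA. This element, on either strand, was in the windows of 12 of the 40 genes (30.0%), against 3.97% of all windows and 2.65% of the measured genes with a window. The genes were listed as members of the ATF4 pathway or the unfolded protein response, and the element is the one ATF4 binds. This excess, too, is thus no independent result. The tRNA synthetases held 5 of the 12 (Aars, Gars, Iars, Tars and Yars), the regulators 3 (Atf3, Chac1 and Trib3), the enzymes 2 (Asns and Pycr1), and Slc7a11 and Herpud1 stood alone in their branches. The cyclic AMP response core TGACGT was in 15.0% of the windows of the 40 genes and in 14.4% of those of measured genes, a share near the background. The windows below show the ATF4 element, in capitals, in genes of 4 branches. The coordinates in this order are chr6:7693210-7693262 (minus strand), chr11:120643814-120643881 (minus), chr2:119351019-119351086 (plus), chr3:50443623-50443690 (minus), chr6:55037941-55038000 (plus) and chr15:11399659-11399703 (minus).
Asns: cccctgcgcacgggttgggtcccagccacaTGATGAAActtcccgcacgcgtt
Pycr1: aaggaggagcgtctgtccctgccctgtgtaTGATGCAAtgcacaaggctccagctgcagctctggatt
Chac1: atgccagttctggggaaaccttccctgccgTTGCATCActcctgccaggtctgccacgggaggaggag
Slc7a11: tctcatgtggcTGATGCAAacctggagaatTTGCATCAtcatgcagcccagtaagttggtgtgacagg
Gars: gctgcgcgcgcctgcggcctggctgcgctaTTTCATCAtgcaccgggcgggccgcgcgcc
Tars: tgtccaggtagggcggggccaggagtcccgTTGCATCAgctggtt
Slc7a11, the cystine and glutamate exchanger, carries the element on both strands within these 68 bases. A match of letters is a description of the window and not a bound site.

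The lowest FPKM values fell on regular steps, from which the libraries were estimated at 44200000 fragments (control) and 47900000 (ruxolitinib) in wild type and 54700000 (control) and 52000000 (ruxolitinib) in knockout, any scaling by the authors included. Mast cell markers led the libraries: 13 of 14 listed genes were measured, with summed levels of 34440, 39360, 22860 and 28350 FPKM in the same order, while Cpa3 was listed at 0 in all 4. Not all of them moved as the sum did. Tpsab1 was higher in both knockout than in both wild-type libraries, and Hdc, Gata2 and Tpsab1 were lower with drug in both genotypes. Plasma cells, which make much chaperone RNA, were near absent by their markers: the 6 of 10 genes in the table summed to 0.0657 to 0.240 FPKM, none was measured and Prdm1 was at 0. Markers of granulocytes summed to 90.5 and 108.5 FPKM in the wild-type and 29.3 and 29.3 in the knockout libraries, nearly all of it Ctsg. The low markers Mpo, Elane, Prtn3, S100a8 and S100a9 went the other way, each higher in both knockout than in both wild-type libraries. Mpo reached the most among them, 1.31 FPKM in knockout with drug. Stem and progenitor markers were at 319 and 327.5 FPKM in the control and 442.4 and 476.1 in the ruxolitinib libraries, nearly all of it Cd34, with Flt3 at 0. Of the rest, Mecom was lower with drug in both genotypes, Hlf was higher in both, and Procr was lower in wild type and higher in knockout. The part of these cell types in the differences below was not tested, and in bulk RNA fewer cells of a type and less RNA per cell cannot be told apart. Xist was at 53.2 and 62.2 FPKM in the knockout libraries and near 0 in the wild type, so genotype and sex cannot be told apart. Tet2 lay between 3.62 and 5.05 FPKM, a value for the whole gene that does not check the deletion. The JAK-STAT feedback gene Cish, a check of the drug, was at 174.1 and 45.1 FPKM without and with ruxolitinib in wild type and at 113.8 and 40.7 in knockout.

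Most of these genes were abundant. Between 39 and 41 of the 45 measured genes lay above the median of all measured genes, which was 14.7 to 14.8 FPKM. Atf4 itself (chromosome 15, 80255184 to 80257545, mm10) was the most abundant of the 47 per length, at 601.3 FPKM without and 481.9 with ruxolitinib in wild-type cells and at 599.3 and 532.7 in knockout cells. Both control libraries were alike for Atf4 and both ruxolitinib libraries were lower. The highest in the other branches were Psat1 among the enzymes, Slc3a2 among the transporters, Nars among the synthetases and Hspa5 among the chaperones. The lowest were Atf3, Cth, Slc7a11 and Pycr1, none above 3 FPKM.

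**Figure D1:**
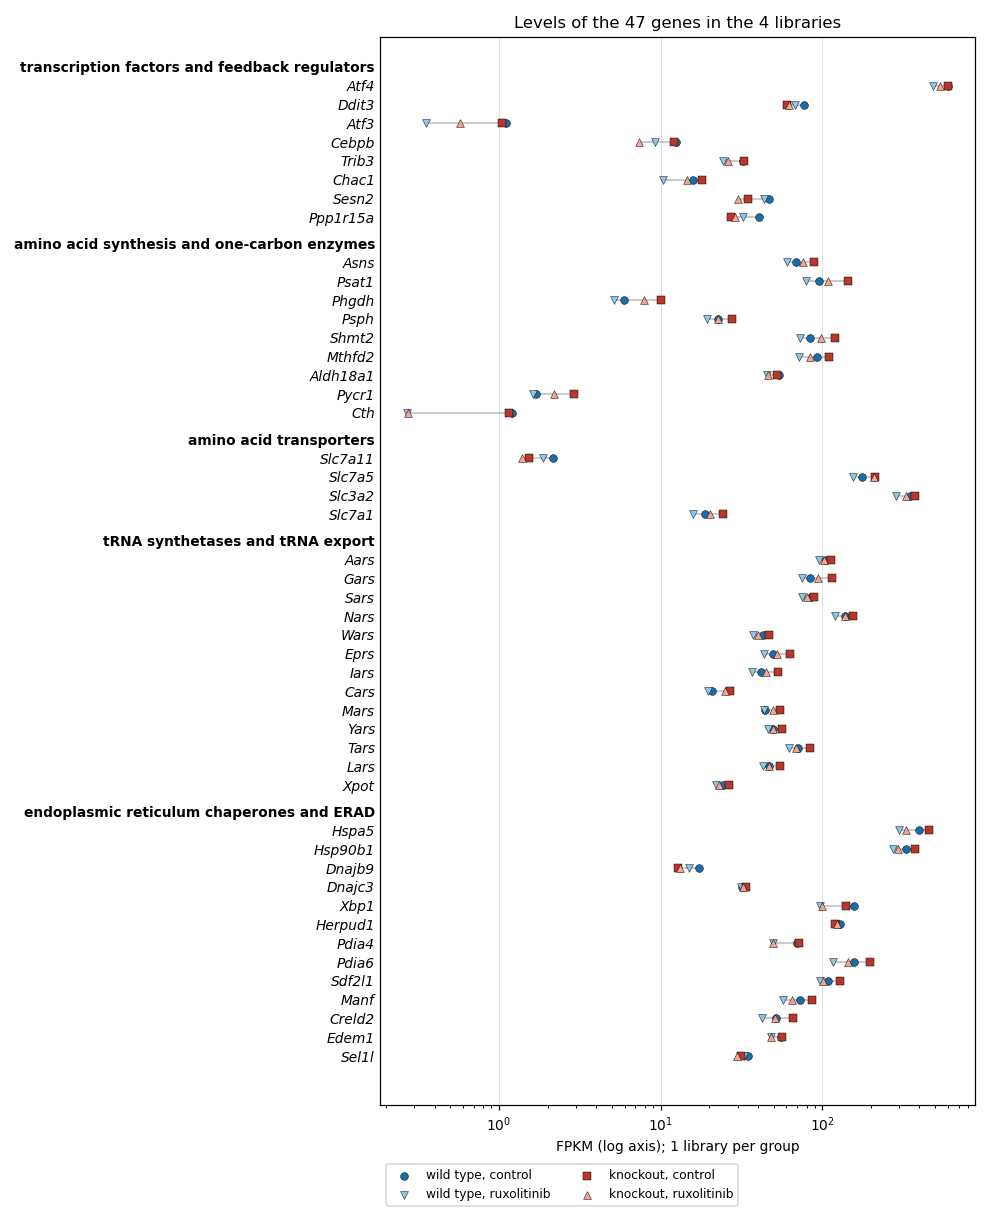
Levels of the 47 genes in FPKM on a log axis, by branch, with 1 point for each of the 4 libraries and a grey line over their range. Most genes lie above 14.7 FPKM, and for 36 of the 45 measured genes the lowest point is the wild-type ruxolitinib library.

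Most of these genes shared the library of their highest level and the library of their lowest. The knockout control library held the highest level for 34 of the 45 measured genes, where it did so for 31.8% of all measured genes. The wild-type control held the highest for the other 11, against 20.2% of all genes, a count near the background. The wild-type ruxolitinib library was lowest for 36 of the 45, against 26.5% of all genes. The 11 that peaked in the wild-type control included 5 of the 7 measured regulators and the chaperone factors Xbp1, Dnajb9, Herpud1 and Sel1l.

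With ruxolitinib the levels were lower across all branches in wild-type cells. All 45 measured genes had a negative log2 ratio of FPKM + 1, where 47.7% of all measured genes did, and the median ratio was -0.19 against 0.01 over all genes. In knockout cells 41 of 45 were lower, against 48.7% of all genes, with a median of -0.23 against 0.00. The sizes were small. A log2 ratio of at least 0.32 in size means FPKM + 1 higher by 25% or lower by 20%. In wild type 9 were lower and 0 higher by that much, where 6.06% of all genes were lower and 4.61% higher. In knockout 12 were lower and 0 higher at that size, against 7.65% and 7.19%. At 1.5-fold only Xbp1 was lower in wild type and only Cebpb in knockout, against 2.64% and 2.2% of all genes, and 0 were higher, against 1.05% and 1.67%.

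The 2 drug pairs share no library, so a gene low in both was seen in separate libraries. Of the 45 genes, 41 were lower in both pairs, against 36.5% of all measured genes, and 8 were lower by at least 0.32 in both, against 3.5%. These 8 were the regulators Cebpb and Trib3, the enzyme Mthfd2, and the endoplasmic reticulum genes Hspa5, Xbp1, Pdia4, Pdia6 and Manf. In the reference annotation Manf overlaps Rbm15b by 6511 bases on the same strand. Under a rescaling of each library to a common sum (TPM), 43 of the 45 were lower in wild type, with Mars and Dnajc3 on the other side of 0, and 41 in knockout. Of all measured genes 38.9% and 44.2% were then lower. The authors' deposited table gave a q-value under 0.05 to 8 of the 45 as lower in wild type and to 10 in knockout, against 3.96% and 4.77% of the measured genes it tested. It gave none as higher, against 2.33% and 4.63%. Those q-values compare 2 libraries and not 2 conditions.

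**Figure D2:**
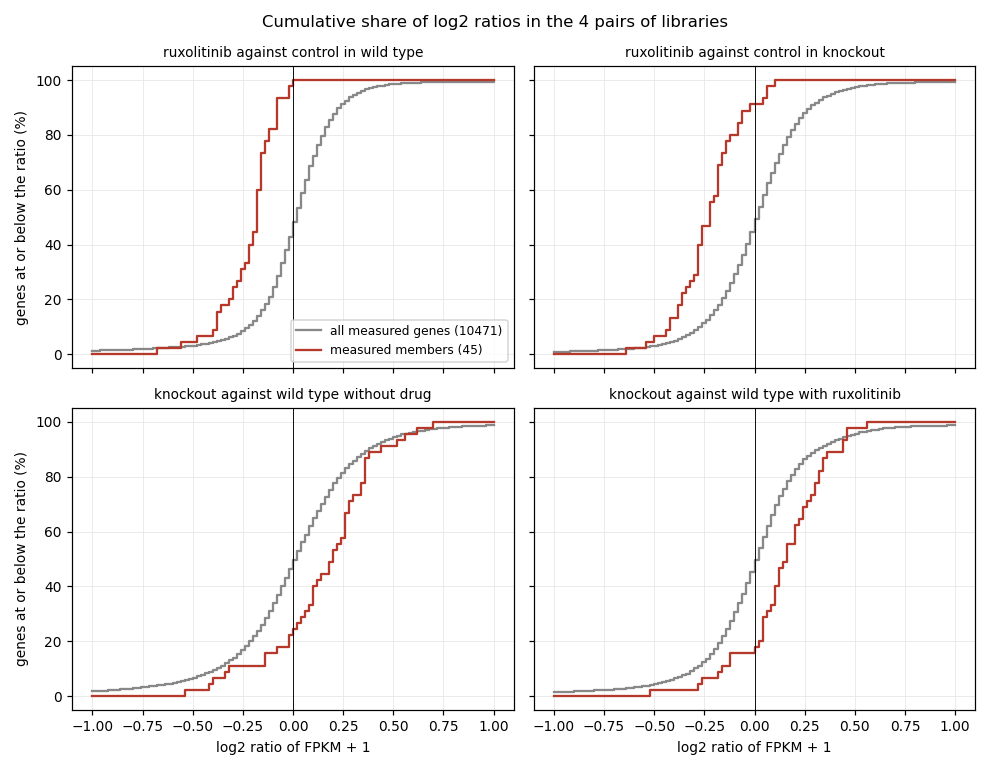
Cumulative share, in percent, of genes at or below each log2 ratio of FPKM + 1 for the 45 measured members (red) and all 10471 measured genes (grey), 1 panel for each pair of libraries. In the upper panels (ruxolitinib against control) the red line lies to the left, reaching 100% at 0 in wild type, and in the lower panels (knockout against wild type) it lies to the right over most of its length.

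The endoplasmic reticulum branch was lower with ruxolitinib by a median of -0.27 in wild type and -0.36 in knockout, with 5 and 8 of its 13 genes at -0.32 or below. Xbp1 (chromosome 11, 5520641 to 5525993), the transcription factor of the IRE1 arm, was at 156.6 and 96.9 FPKM without and with drug in wild-type cells and at 141.3 and 99.1 in knockout. Its log2 ratios were -0.69 and -0.51, with counting errors of 0.020 and 0.019 from the estimated fragments, and both drug libraries lay below both controls. Counting error leaves out all variation between cultures and animals. The gene table does not separate spliced from unspliced Xbp1.

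Hspa5 (chromosome 2, 34772090 to 34776529), the chaperone BiP that also holds the stress sensors in check, was at 394.5 and 299.6 FPKM without and with drug in wild-type cells. In knockout it was at 455.2 and 331.9 FPKM. Its ratios were -0.40 and -0.45, and the drug libraries again lay below both controls. The disulfide isomerases Pdia4 and Pdia6 behaved alike, Pdia4 with 69.6 and 49.5 FPKM in wild-type cells and 72.4 and 49.4 in knockout, and Pdia6 with 156.9 and 117.4 in wild type and 197.4 and 145.3 in knockout. The ratios of Pdia4 were -0.48 and -0.54, and those of Pdia6 were -0.42 and -0.44. The authors' deposited table gave Xbp1, Hspa5, Pdia4 and Pdia6 q-values under 0.05 in both drug pairs.

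Other secretory chaperones were lower by less. The ratios of Hsp90b1, the Hsp90 of the endoplasmic reticulum, were -0.27 and -0.35, those of the trophic factor Manf -0.33 and -0.39, and those of Sdf2l1, a partner of BiP, -0.16 and -0.36. Creld2, a secreted stress protein, was at 51.8 and 42.7 FPKM in wild-type cells without and with drug and at 66.2 and 51.1 in knockout cells. Dnajc3, a BiP co-chaperone, was nearly level at 31.7, 31.4, 34.0 and 32.15 FPKM in that order of libraries, although its promoter window holds the stress element printed above. The degradation genes Edem1, Sel1l and Herpud1 had ratios between -0.20 and 0.03 in the 2 pairs.

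Among the 12 measured genes with the stress element in their window, the 5 members had drug ratios of -0.40 and -0.45 (Hspa5), -0.27 and -0.35 (Hsp90b1), -0.42 and -0.44 (Pdia6), -0.27 and -0.37 (Creld2) and -0.02 and -0.08 (Dnajc3). The 7 others ran from -0.37 to 0.35 in wild type and from -0.55 to 0.48 in knockout. The chaperone calreticulin, Calr, had the lowest ratio of the 7 in both pairs. Its levels were 772.4 and 596.0 FPKM without and with drug in wild-type cells and 996.0 and 680.4 in knockout. Of the 7, Calr, Canx and Syvn1 were lower in both pairs, and Alg12, Hnrnpa3, Pan2 and Zfp57 were higher in both. Holding the element thus did not go with one direction over all 12 genes, although all 5 members were lower.

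The regulators were the branch with the lowest median in wild type, -0.32, and had -0.20 in knockout. Atf4 had ratios of -0.32 and -0.17. Chac1, which degrades glutathione, was at 15.8 and 10.4 FPKM without and with drug in wild-type cells and at 18.05 and 14.7 in knockout, with ratios of -0.56 and -0.28. Cebpb (chromosome 2, 167688915 to 167690432), the partner of ATF4 on composite elements, was at 12.5 and 9.27 FPKM in wild-type cells and 12.2 and 7.35 in knockout. Its ratios of -0.39 and -0.66 carried counting errors of 0.081 and 0.081, and 908 of its bases overlap Tmem189 on the opposite strand. The pseudokinase Trib3, which inhibits ATF4, had ratios of -0.39 and -0.33. Sesn2, a leucine sensor, moved least in wild type, at 46.8 and 43.9 FPKM, and was at 34.6 and 30.1 in knockout.

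Ddit3 encodes the pro-apoptotic factor CHOP, and Ppp1r15a encodes GADD34, the subunit that removes the phosphate from eIF2 alpha. Both had opposite signs in the 2 genotypes, as did Dnajb9 and Herpud1. These 4 of the 45 were lower with drug in wild type and higher in knockout, against 11% of all measured genes, a count near the background. Their knockout ratios were small, at 0.04, 0.09, 0.04 and 0.03 in this order. The deposited q-values in the wild-type and knockout drug pairs were 0.762 and 0.967 for Ddit3 and 0.862 and 0.970 for Ppp1r15a. Ddit3 was at 77.6 and 68.0 FPKM without and with drug in wild-type cells and at 60.5 and 62.2 in knockout. Ppp1r15a was at 40.6 and 32.6 FPKM in wild-type cells and at 27.3 and 29.05 in knockout. For both genes the wild-type control was the highest library and the knockout control the lowest. Ddit3 overlaps Mars by 68 bases on the opposite strand and shares 1 locus with it in the deposited table, and Ppp1r15a overlaps Tulp2 by 717 bases.

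The low members Atf3 and Cth had the largest proportional drops with drug. Cth, the enzyme that makes cysteine from cystathionine, was at 1.20 and 0.272 FPKM without and with drug in wild-type cells and at 1.16 and 0.274 in knockout. These stand for about 86 and 21, and 102 and 23 estimated fragments. The authors' deposited table gave log2 fold changes of -2.15 and -2.08, without a pseudocount, and q-values of 0.000746 and 0.00253. Atf3, a stress-induced factor, was at 1.11 and 0.354 FPKM in wild-type cells and 1.04 and 0.577 in knockout, with deposited log2 fold changes of -1.65 and -0.85 and q-values of 0.00197 and 0.0509. Both genes were lower in both drug libraries than in both controls.

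The enzymes had drug medians of -0.21 in wild type and -0.29 in knockout, and all 8 measured were lower in both pairs. Mthfd2, a mitochondrial folate enzyme, was at 92.8 and 71.7 FPKM in wild-type cells and 110.8 and 83.7 in knockout, with ratios of -0.37 and -0.40. Psat1, the aminotransferase of serine synthesis, had ratios of -0.26 and -0.42. Pycr1, the last enzyme of proline synthesis, was nearly level in wild type, at 1.69 and 1.63 FPKM, and at 2.94 and 2.20 in knockout, on 203 to 435 estimated fragments a library. Aldh18a1, the first enzyme of proline synthesis, was at 53.9 and 45.5 FPKM in wild-type cells and 52.8 and 46.3 in knockout.

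The 4 transporters were lower in both pairs, with medians of -0.21 and -0.13 and none at -0.32 or below. Slc3a2, the heavy chain shared by several exchangers, was at 348.9 and 284.3 FPKM in wild-type cells and 373.4 and 329.4 in knockout. Its light chain partner Slc7a5, the leucine importer, was at 176.0 and 154.2 in wild type and 213.1 and 209.5 in knockout, a ratio of -0.02 in knockout that turned sign when values were rescaled over protein-coding genes.

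All 12 synthetases and Xpot were lower in both drug pairs, with medians of -0.17 and -0.20 and none at -0.32 or below. The ratios ran from -0.21 to -0.02 in wild type and from -0.28 to -0.09 in knockout, so the 13 lay close together. In wild type Wars, the tryptophan enzyme, had the lowest ratio, at 43.2 and 37.1 FPKM without and with drug, and Mars, the methionine enzyme, the highest, at 44.4 and 43.7. In knockout Gars, the glycine enzyme, had the lowest, at 114.3 and 93.7 FPKM, and Cars, the cysteine enzyme, the highest, at 26.75 and 25.1. The most abundant, the asparagine enzyme Nars, was at 139.0 and 120.0 FPKM in wild-type cells and 156.0 and 137.8 in knockout.

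**Figure D3:**
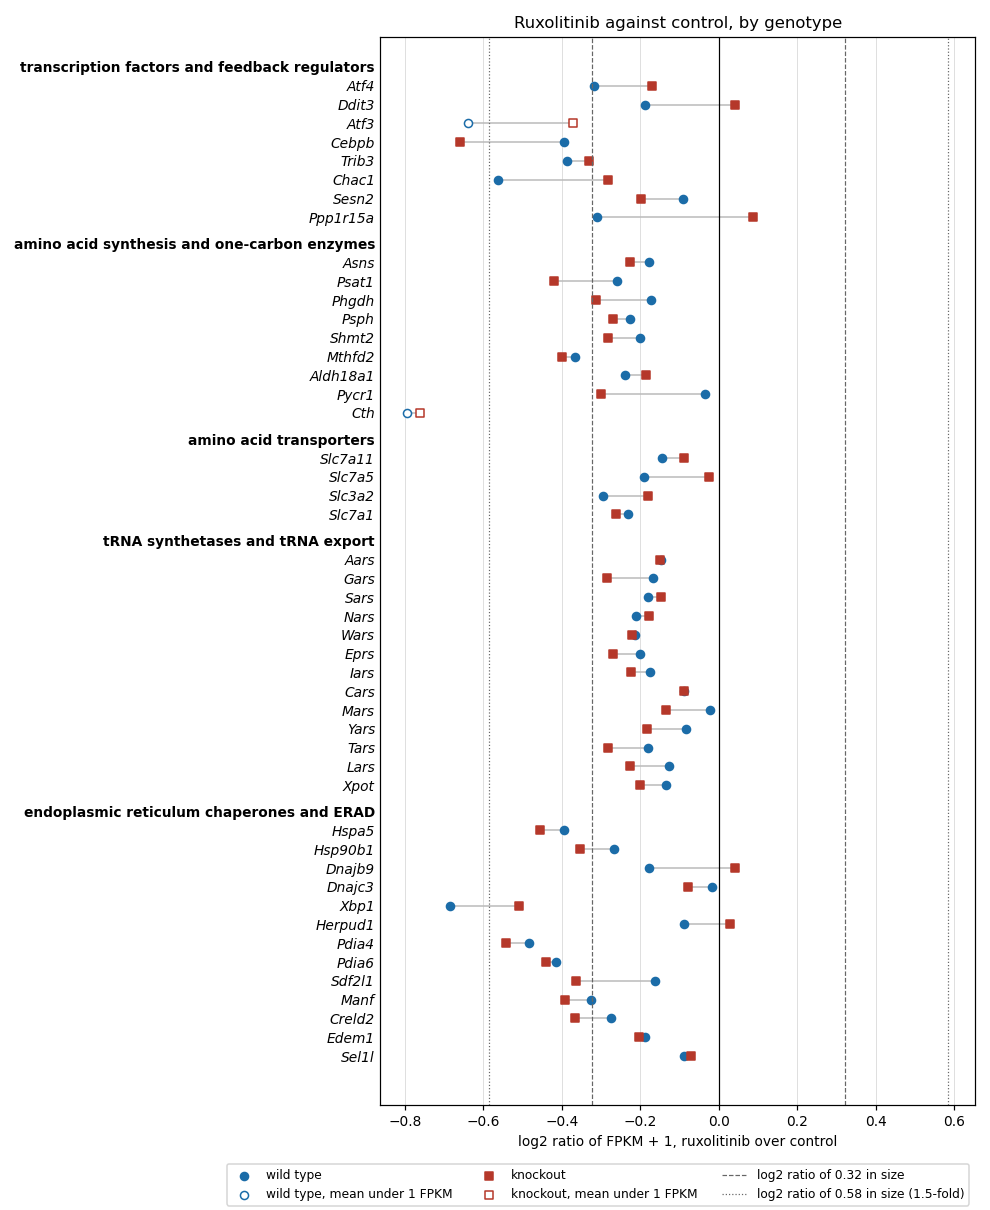
Log2 ratio of FPKM + 1, ruxolitinib over control, for each of the 47 genes in wild type (blue circles) and knockout (red squares), with open points for genes under a mean of 1 FPKM and lines at log2 ratios of 0.32 and 0.58 (1.5-fold) in size. The points lie left of 0 but for Ddit3, Ppp1r15a, Dnajb9 and Herpud1 in knockout, and the endoplasmic reticulum genes Xbp1, Pdia4, Hspa5 and Pdia6 lie past the 0.32 line in both genotypes.

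Between genotypes the branches separated. Without drug 34 of the 45 genes were higher in the knockout library and 11 lower, against 50.4% of all genes higher, with a median ratio of 0.19 against 0.00 over all genes. With ruxolitinib 37 were higher and 8 lower, against 50.2%, with a median of 0.14 against 0.00. Rescaling to TPM took the median of all genes to 0.15 and 0.13 in these 2 pairs, and 39 of 45 were then higher in each (86.7%, from 75.6% and 82.2%). The background moved too: the share of all genes that were lower fell to 29.4% and 27.4%, from 49.1% and 49.3%. The members' TPM medians of 0.34 and 0.28 are to be read against the TPM medians of all genes. The genotype pairs share libraries with the drug pairs, so their values are given side by side and not combined.

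At a log2 ratio of 0.32 or more in size, 12 of the 45 were higher and 5 lower in the knockout without drug, against 12.8% and 12.9% of all genes. With drug 7 were higher and 1 lower, against 9.45% and 9.03%. At 1.5-fold 2 were higher and 0 lower without drug, against 3.88% and 5.06%, and 0 were either with drug, against 2.97% and 3.34%. Of the 45, 33 were higher in both genotype pairs, against 41.4% of all genes, and 5 were higher by at least 0.32 in both, against 7.11%: Asns, Psat1, Phgdh, Shmt2 and Cars. The authors' deposited table gave a q-value under 0.05 to 7 of the 45 as higher and 3 as lower without drug, against 9.17% and 9.64%. With drug it did so for 5 as higher and 2 as lower, against 6.71% and 6.06%. At 1.5-fold the members' count was near the background.

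The enzymes of amino acid synthesis were the branch highest in the knockout, with medians of 0.45 without and 0.30 with drug. Phgdh (chromosome 3, 98313171 to 98339969), which starts serine synthesis, was at 5.92 (wild type) and 10.1 FPKM (knockout) without drug and at 5.14 and 7.96 with it. Its ratios were 0.68 and 0.54, with counting errors of 0.083 and 0.089. Psat1 (chromosome 19, 15905123 to 15925059), the next step, was at 95.0 and 145.2 FPKM in wild-type cells and knockout without drug and at 79.25 and 108.3 with drug, with ratios of 0.61 and 0.45. Both knockout libraries lay above both wild-type libraries for Phgdh and Psat1.

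Psph, the last step of serine synthesis, had smaller ratios of 0.27 and 0.23. Shmt2, which passes the serine carbon to mitochondrial folate, was at 83.6 and 120.3 FPKM without drug and 72.7 and 98.7 with drug. Asns, the asparagine synthetase, was at 68.8 and 89.5 FPKM without drug and 60.7 and 76.4 with drug, also higher in both knockout libraries. Pycr1 had ratios of 0.55 and 0.28. Aldh18a1 did not share the pattern, with ratios of -0.03 and 0.02, the first of which turned positive under TPM.

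The synthetases and Xpot were higher in the knockout in 13 of 13 cases in both pairs, against 50.4% and 50.2% of all genes. Their medians were 0.22 and 0.15. Gars was at 84.5 and 114.3 FPKM without drug and 75.1 and 93.7 with drug, the former ratio, 0.43, being the highest of the branch. Cars was at 20.9 and 26.75 FPKM without drug and 19.6 and 25.1 with drug, a ratio of 0.34 in each pair. The lowest were the serine enzyme Sars without drug, at 85.0 and 89.5 FPKM, and the exporter Xpot with drug, at 22.0 and 23.1. Eprs and Iars, for proline with glutamate and for isoleucine, had ratios of 0.34 without drug and 0.27 and 0.29 with drug. The ratios of Aars, Nars, Wars, Yars, Tars, Lars and Mars lay between 0.10 and 0.29.

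The transporters split. Slc7a5 and Slc7a1, the importers of leucine and of arginine, were higher in the knockout, with ratios of 0.27 and 0.35 without drug and 0.44 and 0.32 with drug. Slc7a1 was at 18.9 and 24.4 FPKM in wild-type cells and knockout without drug and 15.9 and 20.2 with drug. Slc3a2 had ratios of 0.10 and 0.21. Slc7a11 went the other way, at 2.17 and 1.53 FPKM without drug and 1.87 and 1.38 with drug. Its ratios on the scale of FPKM + 1 were -0.32 and -0.27, and each library held an estimated 650 to 868 fragments for it.

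The regulators were not higher as a branch, with medians of -0.03 without and -0.13 with drug, which became 0.11 and 0.00 under TPM. Atf4 had a ratio of -0.0048 without drug, positive under TPM, and 0.14 with drug. Sesn2 (chromosome 4, 132492807 to 132510456) was lower by more than 0.32 in both pairs, at ratios of -0.42 and -0.53 with counting errors of 0.025 and 0.027. Ppp1r15a had the lowest ratio of the branch without drug, -0.56, and -0.16 with drug, and the authors' deposited table listed q-values of 0.708 and 0.937. Ddit3 had ratios of -0.35 and -0.13, the second of which reached 0 under TPM, with deposited q-values of 0.497 and 0.865. Chac1 was higher, at ratios of 0.18 and 0.46, and Cebpb had ratios of -0.03, positive under TPM, and -0.30.

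The endoplasmic reticulum genes had genotype medians of 0.10 without and 0.03 with drug, which became 0.25 and 0.17 under TPM. Creld2 and Pdia6 had the highest ratios, 0.35 and 0.33 without drug and 0.25 and 0.30 with drug. Hspa5 had 0.21 and 0.15, and Xbp1 had -0.15 and 0.03, the first of which turned sign, close to 0, under TPM. Dnajb9 (chromosome 12, 44205897 to 44210068), a BiP co-chaperone and target of XBP1, was the lowest without drug, at 17.2 FPKM in wild-type cells and 12.75 in knockout, and at 15.1 and 13.15 with drug. The knockout libraries were the lower ones for Dnajb9 in both pairs.

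**Figure D4:**
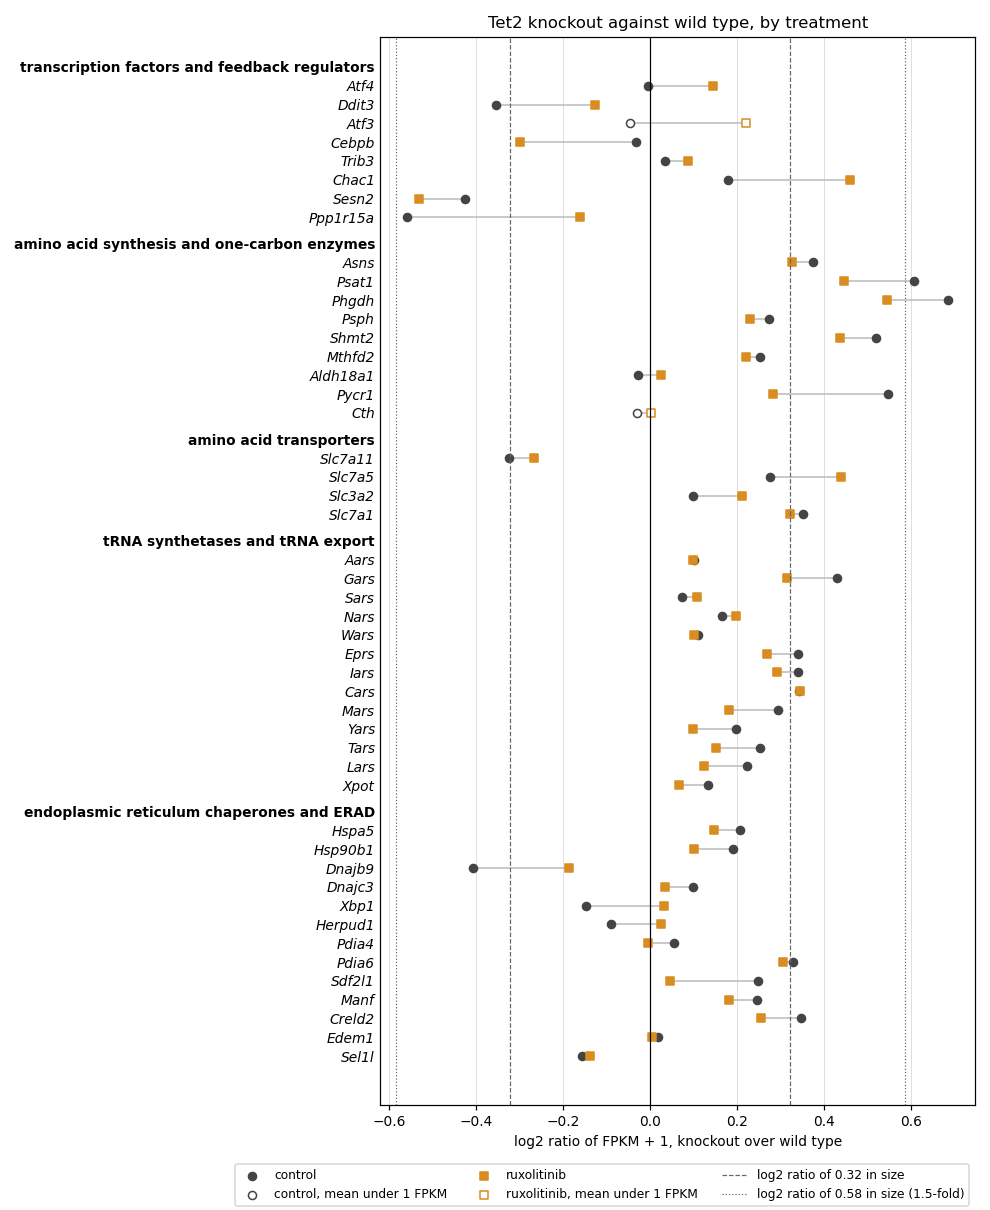
Log2 ratio of FPKM + 1, knockout over wild type, for each of the 47 genes without drug (dark circles) and with ruxolitinib (orange squares), with open points for genes under a mean of 1 FPKM and lines at log2 ratios of 0.32 and 0.58 (1.5-fold) in size. The 13 genes of tRNA charging and export lie right of 0 in both pairs, Phgdh and Psat1 lie past 1.5-fold without drug, and Sesn2, Ddit3, Ppp1r15a, Slc7a11 and Dnajb9 lie left of 0.

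The drug ratio in knockout minus that in wild type had a median of -0.04 over the 45 genes and -0.01 over all genes. It was negative for 29 of the 45, against 52.6% of all genes. Ppp1r15a alone passed 0.32 in size, on the higher side, against 4.38% of all genes higher and 2.44% lower. The regulators had a median difference of 0.15 and the enzymes, synthetases and chaperones -0.07, -0.07 and -0.06. With 1 library per group this difference could not be tested.

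Genes of the same pathways outside the 47 were taken from 6 lists. The stress sensors and eIF2 alpha controls had drug medians of -0.07 in wild type and -0.05 in knockout over 17 measured genes, and genotype medians of 0.06 and 0.04. Ern1, which encodes the sensor IRE1, had the lowest genotype ratio of that list without drug, -0.47, at 11.1 FPKM in wild-type cells and 7.76 in knockout cells, and was at 10.4 and 9.10 with drug. The 8 cytosolic synthetases outside the 47 were all lower with the drug in both genotypes, at medians of -0.19 and -0.26, as the members were. Of these 8, 7 were higher in the knockout without drug and 7 with it, at medians of 0.24 and 0.14. The 17 mitochondrial synthetases split into 9 higher and 8 lower with the drug in wild type, and 4 and 13 in knockout. Between genotypes 15 of the 17 were higher in the knockout without drug and 10 with it, at medians of 0.19 and 0.07. Lars2, the mitochondrial leucine enzyme, was at 233.5 and 229.6 FPKM without and with drug in wild-type cells and 139.0 and 161.1 in knockout.

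Of 27 further endoplasmic reticulum genes, 22 were lower with the drug in wild type and 23 in knockout, at medians of -0.12 and -0.17, closer to 0 than the branch medians of -0.27 and -0.36. The oxidoreductase Ero1lb was low, at 2.08 and 2.12 FPKM in wild-type cells and 1.12 and 0.962 in knockout. A list of heat shock genes, mostly cytosolic but with the mitochondrial Hspd1 and Hspe1 and the heat shock factor Hsf1 itself, was lower with the drug in 11 of 11 cases in wild type and 10 of 11 in knockout, at medians of -0.17 and -0.32. Dnajb1, a co-chaperone of cytosolic Hsp70, was at 74.5 and 40.8 FPKM without and with drug in wild-type cells, and at 46.2 and 46.7 in knockout cells. Hspd1, the mitochondrial chaperonin, was at 42.1, 32.2, 69.4 and 42.8 FPKM in the same order of libraries. In the knockout 10 of the 11 heat shock genes were higher without drug and 8 with it, at medians of 0.16 and 0.15. The 27 further endoplasmic reticulum genes had 16 and 13 higher, at medians of 0.07 and -0.01. Neither a drug ratio below 0 nor a list mostly higher in the knockout was thus limited to the members.

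The further genes linked to ATF4 did not move as a block with the drug, with drug medians of -0.08 and -0.18 over the 17 of 21 that were measured. Between genotypes 12 of the 17 were higher in the knockout without drug and 11 with it, at medians of 0.10 and 0.15. Nfil3, a leucine zipper factor, was at 5.30 and 2.0 FPKM without and with drug in wild-type cells and 3.58 and 1.59 in knockout cells. Nupr1, a small stress protein, was at 28.4 and 20.0 in wild type and 29.4 and 18.3 in knockout. Shmt1, the cytosolic partner of Shmt2, was level with the drug in wild type, at 9.28 and 9.27 FPKM, and was at 18.9 and 14.8 in knockout. Gdf15, a stress cytokine with the highest wild-type ratio of its list, was at 16.2 and 21.6 in wild type and 17.0 and 21.5 in knockout. The glycine transporter Slc6a9, highest in knockout, was at 31.6 and 39.75 in wild type and 29.6 and 41.3 in knockout.

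**Figure D5:**
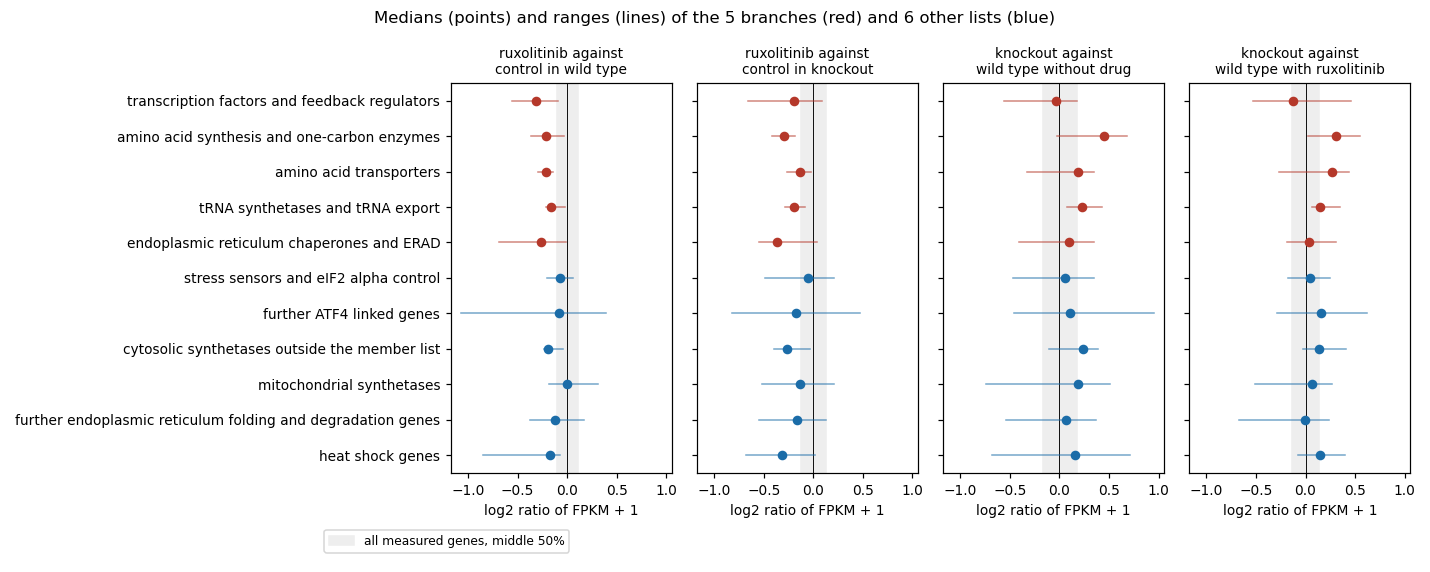
Median (point) and range (line) of the log2 ratio of FPKM + 1 for the 5 branches (red) and the 6 other lists (blue) in the 4 pairs of libraries, with the middle 50% of all measured genes in grey. With ruxolitinib in wild type all 5 red points lie left of the grey band, and without drug the enzyme branch is farthest to the right between genotypes at 0.45.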

How the data were processed

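Libraries were made by Illumina protocols from total RNA after ribosomal depletion, per the labels' protocols, and STAR, Cuffdiff and mm10 are named in the submitters' processing notes. No tool version, gene annotation, strand handling or scaling between libraries is given in the sources used here. Expression was deposited by the authors as FPKM for 24340 genes in 4 libraries. A second deposited table gives the authors' comparisons of library pairs, with log2 fold changes without a pseudocount, and p-values and q-values. Its test statistic, a score, was deposited too and not used.

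Ratios were computed as log2(FPKM + 1), which understates changes of low genes. A mean of 1 FPKM or more was required, and no p-value was computed, as each group is 1 library. The members, lists and naming rule (Atf4, Ddit3, Xbp1, Hspa5, members at 1.5-fold, the extremes and most abundant of each branch) were chosen with earlier results of these data known. Genes outside the 47 are named at 1.5-fold, as a list's extreme, or as measured holders of the stress element. Depth was estimated from the steps between low values of genes with 1 annotated transcript over 1500 bases. Between 75.2% and 85.3% of low values set aside lay within 0.15 of a whole step, so these are estimates and not counts. Promoter windows were matched by symbol or gene ID, and a planned search of protein ends was not run. Alternatives were pseudocounts of 0.1 and 5, no filter, a filter at 5 FPKM, centring, TPM, a sum over protein-coding genes, the authors' fold changes, and other fold thresholds. The steps were tested on simulated data. Python 3.11.15, numpy 2.4.6, pandas 2.3.3 and matplotlib 3.10.9 were used.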

Additional observations from a re-analysis of the deposited data

Results flagged for a closer look

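With ruxolitinib, 4 of the 45 measured genes had a negative log2 ratio in wild type and a positive one in knockout, where 11% of all measured genes did, so the count is near the background. The ratio in knockout minus that in wild type was 0.40 for Ppp1r15a, 0.23 for Ddit3, 0.22 for Dnajb9 and 0.12 for Herpud1. These differences were not tested, as each group is 1 library. In each of the 4 genes the wild-type control was the highest of the libraries.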

How the results depend on the processing

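Single members were recomputed under 6 alternatives, and 592 of 744 values stayed within 0.1 of the reported log2 ratio. Of 40 recomputed medians over the 45 genes, 36 did. The 4 that did not were the knockout medians, which went to 0.34 without and 0.28 with drug under TPM and to 0.30 and 0.25 with a sum over protein-coding genes. Of 200 branch medians 178 did. Those of the regulators between genotypes changed sign in 3 cases: without drug -0.03 became 0.11 under TPM and 0.07 with the protein-coding sum, and with drug -0.13 became 0.00 under TPM. The medians of all genes moved too, to 0.15, 0.11 and 0.13 in these 3 cases, and the regulators stayed below them. Counts at 1.5-fold moved with the threshold and scale. Higher in knockout without drug, 2 genes became 1 with a pseudocount of 5, 3 with a pseudocount of 0.1 or the authors' deposited fold changes, 4 under TPM or the protein-coding sum, 12 at a log2 ratio of 0.32 and 0 at 2-fold, and lower went from 0 to 5 at 0.32. Higher in knockout with drug, 0 became 1 with a pseudocount of 0.1, 2 under TPM, 1 with the protein-coding sum, 1 with the authors' deposited fold changes and 7 at 0.32, and lower became 1 at 0.32. Lower with drug in wild type, 1 became 2 with a pseudocount of 0.1, 3 with no filter, 2 with the authors' deposited fold changes, 9 at 0.32 and 0 at 2-fold. Lower with drug in knockout, 1 became 0 with a pseudocount of 5 or at 2-fold, 2 with no filter and 12 at 0.32. The cause was not tested beyond what each setting changes by construction. No library could be left out, as each group is 1 library. No paired analysis was possible because the groups share fewer than 2 replicate numbers, and an additive model over genotype and drug was not fitted. Depth limits Atf3, Cth, Pycr1 and Phgdh, with the fewest estimated fragments, and counting error leaves out variation between animals.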
